A study of Mus musculus with 6 samples.

Results

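Imprinted genes of fetal growth were examined in embryonic skin that carries a Tcfap2c mutation. The set was fixed by name as Igf2, H19, Cdkn1c, Dlk1, Meg3, Peg3, Plagl1, Grb10, Mest and Ndn, and its members are the probe sets that the platform annotation assigns to exactly 1 of these symbols. There were 36 such probe sets among the 45101 on the array, and they covered 9 of the 10 genes. H19 had none, because the single probe set that names it also names Mir675, a microRNA gene inside H19, and no value is given for it. Meg3 had 11 probe sets, Ndn 8, Peg3 5, Plagl1 and Grb10 3 each, Igf2 and Dlk1 2 each, and Cdkn1c and Mest 1 each. The samples were 3 of skin from Tcfap2c mutant mouse embryos and 3 of skin from control embryos, all at embryonic day 16.5, with 1 Affymetrix array per sample. Their titles number them as replicates and do not say whether each came from a separate embryo. The product of Tcfap2c (current symbol Tfap2c) is AP-2 gamma, which regulates transcription in surface ectoderm. The labels name neither the allele, the strain nor any Cre driver, and the description field of the control samples also mentions the mutation. Whether litters or embryo sex differed is not stated, and p-values cover only the scatter among these 6 samples, which may be technical.

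An imprinted gene is read mainly from the copy inherited from a single parent, and the choice is kept by DNA methylation at a control region shared by neighbouring genes. Many paternally expressed members of this class promote growth of the fetus and placenta, and many maternally expressed members restrain it. Their transcripts are abundant in fetal tissues, above all in mesenchyme and muscle, and most decline after birth. Igf2, Dlk1, Peg3, Plagl1, Mest and Ndn are expressed from the paternal copy, and Cdkn1c, Meg3 and, in most tissues outside neurons, Grb10 from the maternal copy. A probe set measures the RNA of both copies together, so these data do not show which copy was read.

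By their brightest probe sets, the 9 measured genes had nearly equal signals in mutant and control skin. Where several probe sets measured a gene, the brightest on average is called its main probe set here. By these, each gene differed by between -0.12 and 0.12 on the log2 scale, with 5 positive and 4 negative differences and a median of 0.015. The main sets of Plagl1, Meg3 and Ndn have names ending in _x_at, that of Dlk1 in _s_at and that of Grb10 in _a_at. How specific such sets are was not tested. Without sets of these kinds, the difference was -0.20 for Plagl1, 0.063 for Meg3, 0.037 for Ndn and 0.087 for Dlk1. Grb10 then had no set left. The median over all 22518 probe sets tested was -0.025, with the middle of the distribution between -0.15 and 0.098 (the quartiles). No member passed the test in limma, with all adjusted p-values at 1.0. The 95% confidence intervals of the main probe sets were narrowest for Cdkn1c, from 0.865-fold to 1.2-fold, and widest for Peg3, from 0.61-fold to 1.39-fold. Changes inside a gene's interval are not excluded by these data. In bulk tissue, fewer cells of a type and less RNA per cell cannot be told apart.

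**Figure D1:**
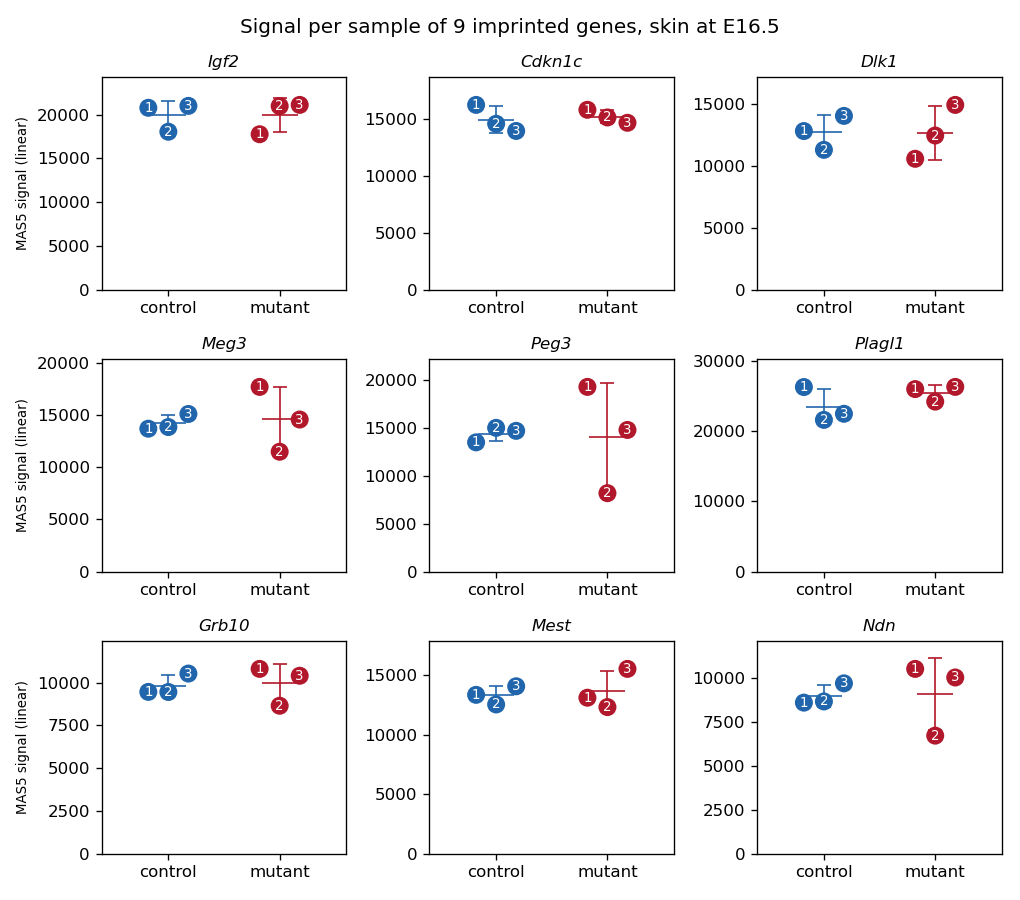
MAS5 signal, on a linear axis from 0, of the main probe set of each of the 9 measured genes in 3 control (blue) and 3 mutant (red) skin samples. Numbered points are samples, horizontal bars are means and error bars are SD (n = 3 each); the groups overlap in every panel, and mutant sample 2 is the lowest of the 6 for Meg3, Peg3, Grb10, Mest and Ndn.

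AP-2 proteins bind a palindrome whose core is written GCCNNNGGC, which reads the same on both strands. The 250 bases before each annotated start site were searched for it in RefSeq promoter sequences (GRCm38.p6), where 8 members had 15 windows; Cdkn1c and H19 had none. The core was present in 5 of the 15 windows, in Igf2, Plagl1, Meg3 and Mest, where the 5 include 2 overlapping windows of Mest that hold the same match. Over all 32851 promoter windows the share was 13.7%. The 4 sequences that hold it are shown 5′ to 3′ on the strand of the gene, because they are the member promoters with letters that the mutated factor's family is known to read. Capitals mark the core. A match of letters is a description and does not show binding.
Igf2, chr7:142658805-142659054, minus strand: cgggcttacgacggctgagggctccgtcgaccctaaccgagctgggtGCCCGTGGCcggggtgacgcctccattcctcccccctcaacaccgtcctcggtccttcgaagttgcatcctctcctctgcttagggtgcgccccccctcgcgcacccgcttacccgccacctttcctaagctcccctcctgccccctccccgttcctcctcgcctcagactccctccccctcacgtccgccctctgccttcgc
Plagl1, chr10:13090582-13090831, plus strand: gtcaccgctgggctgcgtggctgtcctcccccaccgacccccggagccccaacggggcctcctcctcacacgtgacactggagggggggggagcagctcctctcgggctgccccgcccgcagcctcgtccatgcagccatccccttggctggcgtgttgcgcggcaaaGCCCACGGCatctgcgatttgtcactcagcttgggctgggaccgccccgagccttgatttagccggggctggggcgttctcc
Meg3, chr12:109540746-109540995, plus strand: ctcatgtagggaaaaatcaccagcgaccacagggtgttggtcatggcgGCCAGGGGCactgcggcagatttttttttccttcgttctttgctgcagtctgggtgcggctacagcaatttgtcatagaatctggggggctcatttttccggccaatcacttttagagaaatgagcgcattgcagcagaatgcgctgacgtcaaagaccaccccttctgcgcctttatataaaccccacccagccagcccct
Mest, chr6:30737800-30738049, plus strand: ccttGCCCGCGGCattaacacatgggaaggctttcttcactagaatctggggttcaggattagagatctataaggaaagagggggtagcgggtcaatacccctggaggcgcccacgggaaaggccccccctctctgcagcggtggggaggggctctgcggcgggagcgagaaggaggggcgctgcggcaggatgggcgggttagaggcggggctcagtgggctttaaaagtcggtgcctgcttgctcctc

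The Igf2 sequence lies before 1 of 4 annotated start sites, and its core begins at position -203 relative to that site. The core begins at -82 in Plagl1, at -202 in Meg3 and at -246 in Mest. Meg3 and Mest each also have an annotated start site whose window lacks the core. The main probe sets of these 4 genes differed by -0.00060, 0.12, 0.02 and 0.03 on the log2 scale, and none passed the test. The windows held a median of 8 CpG dinucleotides, against 6 over all promoters, and ranged from 0 in a Meg3 window to 40 in a Grb10 window. Their median GC content was 60.4%, against 52.4% over all promoters. The palindrome GGGGCCCC, a sequence bound by the PLAGL1 protein, was found in the Peg3 window alone among the 15, and in 0.889% of all windows.

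Igf2 encodes insulin-like growth factor 2, the main growth factor of the fetus. Its main probe set (1448152_at) gave signals of 17769, 20990 and 21126 in mutant samples 1, 2 and 3 and 20794, 18056 and 21013 in control samples 1, 2 and 3. The lowest sample of each group (17769 and 18056) stood apart from its other samples, and the groups overlapped over nearly their whole range. Mutant skin averaged 19962 ± 1900 and control skin 19954 ± 1650 (SD, n = 3 each). On the log2 scale this was a difference of -0.00060 (SE 0.12), with a 95% interval of -0.26 to 0.26, which allows a change between 0.833-fold and 1.2-fold. The other Igf2 probe set (1415931_at) gave 493 ± 152 and 489 ± 124 (SD, n = 3 each), with a difference of -0.0073 and a wider interval of -0.60 to 0.58.

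Grb10 encodes an adaptor that binds the insulin and IGF receptors and dampens their signal, and it counts as a growth inhibitor. The main Grb10 probe set (1425458_a_at) read 10798, 8643 and 10397 in mutant samples 1, 2 and 3. The control samples read 9454, 9447 and 10525, inside the range of the mutant samples. The difference was 0.02 on the log2 scale (SE 0.12; 95% interval -0.26 to 0.29). A second probe set of Grb10 (1425457_a_at) had the widest spread of all 30 tested probe sets. Its signal was 165 in mutant sample 1, against 724 and 888 in mutant samples 2 and 3 and 617, 541 and 863 in control samples 1, 2 and 3. Mutant sample 1 alone was low there, and the difference of -0.44 had an SE of 0.51. The remaining probe set (1430164_a_at) differed by -0.14. Names ending in _a_at can mark sets that detect several transcripts of a gene, and the deposited values do not tell which Grb10 transcript each set detects.

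Cdkn1c encodes p57, an inhibitor of cyclin-dependent kinases that holds cells in G1 and limits growth. Its single probe set read 15829, 15153 and 14683 in mutant and 16260, 14598 and 13965 in control samples 1, 2 and 3. The mutant samples lay inside the control range. The difference was 0.03 on the log2 scale (SE 0.11; 95% interval -0.21 to 0.27), the narrowest interval among the main probe sets, and it allows a change between 0.865-fold and 1.2-fold.

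Dlk1 and Meg3 are neighbours on chromosome 12 that share a control region and are expressed from opposite parental copies. Dlk1 encodes a transmembrane protein of the Delta and Notch family that keeps preadipocytes and muscle precursors undifferentiated. The main Dlk1 probe set (1449939_s_at) read 10572, 12454 and 14930 in mutant samples 1, 2 and 3 and 12815, 11296 and 14039 in control samples 1, 2 and 3. The mutant samples held both the lowest and the highest of the 6 values. The difference was -0.02 (SE 0.15; 95% interval -0.35 to 0.32). The other Dlk1 probe set (1442724_at) differed by 0.09, with signals of 238 to 327 over the 6 samples.

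Meg3 is a long non-coding RNA. By the main Meg3 probe set (1439380_x_at) the signals were 17708, 11490 and 14578 in mutant samples 1, 2 and 3 and 13700, 13857 and 15111 in control samples 1, 2 and 3. Mutant sample 1 was the highest and mutant sample 2 the lowest of all 6, while the control samples lay close together. The means were 14592 ± 3110 and 14223 ± 774 (SD, n = 3 each), with a difference of 0.02 (SE 0.16). Of the 10 tested Meg3 probe sets, 3 had a positive and 7 a negative difference, from -0.26 to 0.24. They did not follow the same order of samples. The probe sets 1452905_at and 1452183_a_at were also highest in mutant sample 1 (7463 and 8387) and lowest in mutant sample 2 (4690 and 5685). In contrast, 1426758_s_at and 1436713_s_at were lowest in mutant sample 1 (2916 and 2815) and highest in control sample 3 (4743 and 5762).

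The groups did not overlap for 2 of the 30 tested probe sets, and both belong to Meg3. Over all tested probe sets this held for 8.33%, with mutant samples higher in 3.3% and lower in 5.03%. The probe set 1429257_at read 355, 281 and 320 in mutant and 277, 279 and 242 in control samples, with a difference of 0.24 (adjusted p = 1.0 in limma). The probe set 1436057_at went the other way, with 301, 312 and 293 in mutant and 323, 321 and 418 in control samples and a difference of -0.20 (adjusted p = 1.0 in limma). So the separated probe sets of this gene pointed in opposite directions, and neither passed the test.

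Plagl1, also called Zac1, encodes a zinc finger protein that arrests the cell cycle and regulates other imprinted genes, Igf2, H19, Cdkn1c and Dlk1 among them. Its main probe set (1426208_x_at) read 25961, 24180 and 26272 in mutant samples 1, 2 and 3 and 26251, 21578 and 22445 in control samples 1, 2 and 3. All mutant samples were above control samples 2 and 3, and control sample 1 lay among them. The difference of 0.12 (SE 0.11; 95% interval -0.12 to 0.37) was the highest among the 9 main probe sets. The probe set 1450533_a_at had the smallest p of all members. It read 757, 891 and 1259 in mutant and 702, 580 and 892 in control samples 1, 2 and 3, and the groups overlapped. The difference was 0.40 (SE 0.22; 95% interval -0.11 to 0.91), with an adjusted p = 1.0 in limma. The remaining Plagl1 probe set (1438588_at) differed by -0.20, and it was the dimmest tested member in any sample, at 75.7 in mutant sample 2.

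Peg3 encodes a large zinc finger protein tied to stem cells, muscle and maternal behaviour. The main Peg3 probe set (1417355_at) varied more than that of any other member. It read 19271, 8180 and 14777 in mutant samples 1, 2 and 3, against 13482, 14997 and 14684 in control samples 1, 2 and 3. Mutant sample 1 was thus 2.36 times mutant sample 2, and mutant sample 3 lay with the control samples. The difference was -0.12 (SE 0.26), with a 95% interval of -0.71 to 0.48, the widest among the main probe sets. The other tested probe sets of Peg3 did not share this order. The set 1433924_at read between 10058 and 11717 in all 6 samples, with a difference of 0.02. The set 1417356_at was lowest in mutant sample 1 (3162, against 4833 to 5480 in the other samples) and differed by -0.18.

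Peg3 was the only member whose main probe set ranged over more than 1 on the log2 scale. The genes with the most similar profile over the 6 samples were Far1, which encodes a fatty acyl-CoA reductase, and Ehbp1, an EH-domain binding protein. The root mean square distances between their mean-centred log2 signals and those of Peg3 were 0.069 and 0.074. Far1 read 2041, 945 and 1563 in mutant and 1465, 1488 and 1538 in control samples 1, 2 and 3, again highest in mutant sample 1 and lowest in mutant sample 2. The differences between groups were -0.05 for Far1 and -0.13 for Ehbp1. These genes were the nearest of 11589 over 6 samples, which is a description of these arrays.

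Mest, also called Peg1, encodes a protein of the alpha/beta hydrolase fold made in mesoderm. It read 13111, 12323 and 15537 in mutant samples 1, 2 and 3 and 13353, 12544 and 14074 in control samples 1, 2 and 3. In each group sample 3 was the highest and sample 2 the lowest, and the groups overlapped. The difference was 0.03 (SE 0.12; 95% interval -0.24 to 0.30).

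Ndn encodes necdin, a growth suppressor of the MAGE family made in neurons and in mesenchyme. Its main probe set (1435383_x_at) read 10489, 6698 and 10001 in mutant samples 1, 2 and 3 and 8573, 8639 and 9668 in control samples 1, 2 and 3. Mutant sample 2 was the lowest and mutant sample 1 the highest. The difference was -0.0090 (SE 0.17; 95% interval -0.40 to 0.38). The 5 tested Ndn probe sets differed by -0.03 to 0.20, and 4 of them were highest in mutant sample 1 and lowest in mutant sample 2. The fifth, 1415923_at, was lowest in control sample 2 (4624) and highest in control sample 3 (8898).

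**Figure D2:**
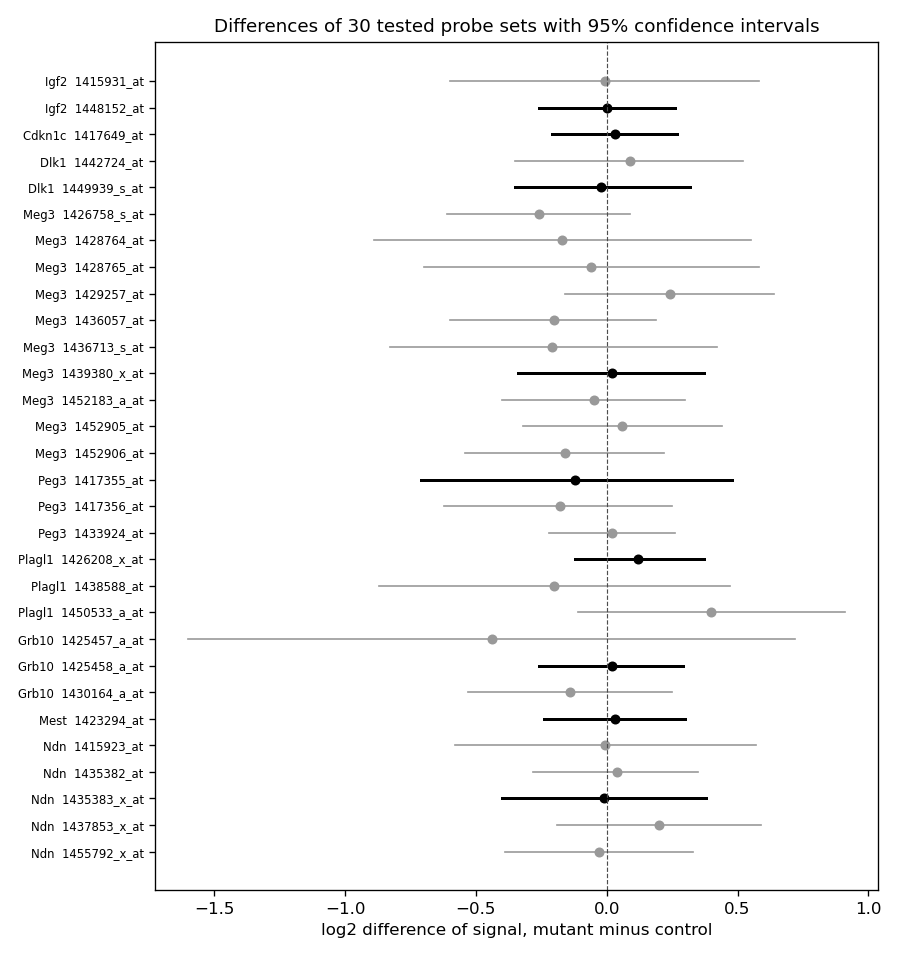
Log2 difference of signal (mutant minus control, x axis) of the 30 tested member probe sets, with 95% confidence intervals from limma as lines; black marks the main probe set of each gene and grey the others. Every interval includes 0, and the main probe sets lie between -0.12 and 0.12.

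Over all 30 tested probe sets, 12 differences were positive and 18 negative, with a median of -0.0082, and 44.4% of all tested probe sets were positive. None of the 30 passed an adjusted p of 0.05, against 1 of 22518 (0.00444%) over the array. None had an unadjusted p under 0.05 either, against 3.42% of all tested probe sets. The 6 paternally expressed genes had a median difference of -0.0048 by their main probe sets and the 3 maternally expressed genes one of 0.016. The within-group SD of the main probe sets had a median of 0.137 on the log2 scale, from 0.0885 to 0.45. It was 0.236 over all tested probe sets and 0.156 over the 1357 with a mean signal above 5000. Several probe sets of a gene share its transcripts and are not independent.

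The other 6 member probe sets lay under the filter, a mean log2 signal at the median of the array (a signal of about 114.5), and were not tested. They were 1 of Meg3, 2 of Peg3 and 3 of Ndn, with signals up to 127. For the Ndn set 1456575_at the groups did not overlap, with 19, 39.1 and 18.6 in mutant and 4.75, 2.4 and 2.99 in control samples 1, 2 and 3. These values are far below the filter, and the groups overlapped for all 5 tested probe sets of Ndn.

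Mutant samples 1 and 2 stood at opposite ends for some members. Of the 30 tested probe sets, 15 were lowest in mutant sample 2 and 0 were highest there, while 10 were highest and 6 lowest in mutant sample 1. Mutant sample 3 was highest for 9 and control sample 3 for 8. Over all tested probe sets, 22% were lowest and 19.3% highest in mutant sample 2, and 24.5% were highest and 31% lowest in mutant sample 1. The highest was mutant sample 3 for 14.7% of them and control sample 3 for 17%. The pattern with mutant sample 1 highest and mutant sample 2 lowest held for 9 of the 30 members (4 of Ndn, 3 of Meg3, and the main probe sets of Peg3 and Grb10), and for 9.94% of all tested probe sets. It was noticed after the values were seen. Over the main probe sets, the median deviation from each gene's mean was 0.091, -0.13 and 0.098 in mutant samples 1, 2 and 3 and -0.010, -0.060 and 0.081 in control samples 1, 2 and 3.

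**Figure D3:**
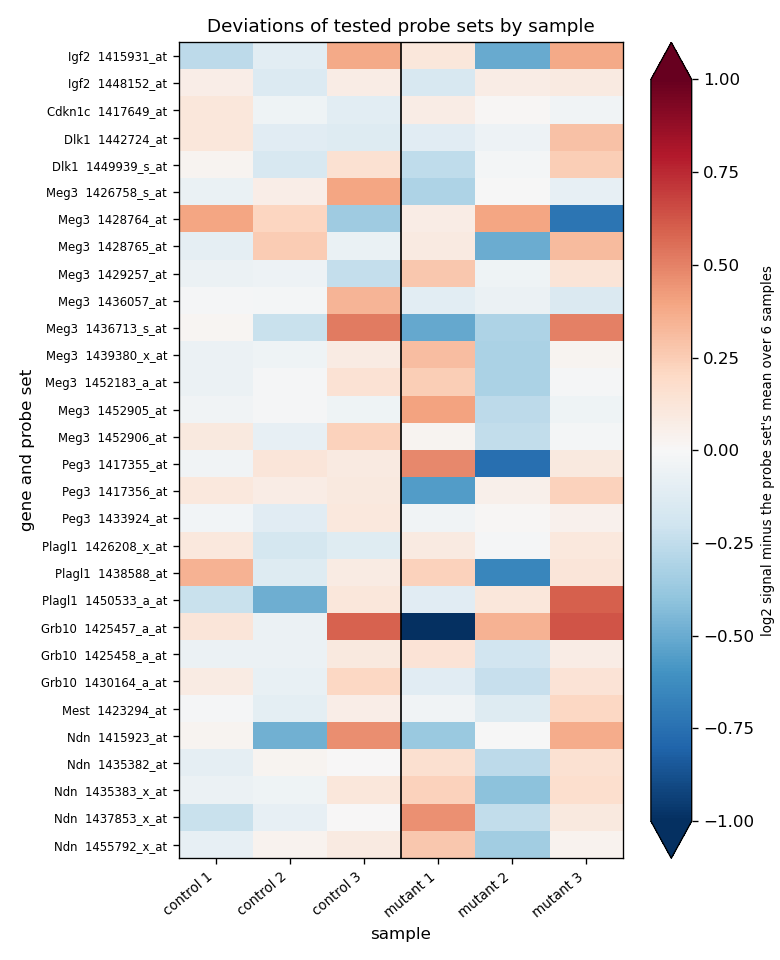
Log2 signal of each of the 30 tested member probe sets (rows) in the 6 samples (columns), as the deviation from that probe set's mean; red is higher, blue is lower, and the colour scale ends at -1 and 1. The column of mutant sample 2 holds the lowest value of 15 probe sets, and mutant sample 1 departs in opposite directions for different probe sets of Meg3, Peg3, Grb10 and Ndn.

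Mutant sample 1 also stood apart from the other arrays as a whole, with a mean correlation of 0.94 against at least 0.961 for the others. Of 5 measured decidual and uterine markers, 4 were highest in it, and their summed signal was 49690, against 506 to 642 in the other mutant and 333 to 439 in the control samples. All 8 smooth muscle markers were highest in it, with a summed signal of 62241 against 8045 to 10583 elsewhere, and so were all 5 leukocyte markers (13066 against 5623 to 7288). Prl8a2, a decidual hormone, read 14204 there and at most 61.2 elsewhere, and Pgr, the progesterone receptor, 2719 against at most 128. Prap1, an epithelial protein of the pregnant uterus, read 32479 against at most 335. Of the smooth muscle markers, Actg2 read 13445 against at most 451, Tagln 13814 against at most 508, Myh11 3746 against at most 264, Cnn1 2800 against at most 61.1 and Lmod1 134 against at most 21.2. Adipoq, the adipocyte hormone adiponectin, read 2769 there and at most 655 elsewhere. Of the 4 measured adipocyte markers, 3 were highest in mutant sample 1. The other, Cebpa, was lowest there (1555, against 2340 to 3652 elsewhere). The 7 measured trophoblast markers summed to 803 there and 645 to 761 elsewhere, and 2 of the 7 were highest in mutant sample 1. Of these, Tpbpa read 197 there and at most 64.9 elsewhere, and it lay under the filter. The 5 measured fetal liver and yolk sac markers summed to 1939 in mutant sample 1 and 179 to 917 elsewhere. Of these 5, 3 were highest in mutant sample 1, and only 2 were bright enough to test. In mutant sample 2 the keratinocyte sum was the highest of all samples (160356, against 111525 to 150408), with all 7 markers (Krt1, Krt5, Krt10, Krt14, Krt15, Trp63 and Cdh1) well above the filter in every sample. The fibroblast sum ranged from 116451 to 123731 in mutant and 113385 to 129362 in control samples, and the skeletal muscle sum from 90163 to 95506 and 94373 to 109577. The samples therefore held dermal and muscle RNA beside that of the epidermis named in the series title. The part of these markers in the pattern of the members was not tested.

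Leaving out mutant sample 1 gave main differences between -0.39 for Peg3 and 0.11 for Plagl1, with a median of 0.00054. No member passed then, although 39 probe sets of the array did. The Plagl1 set 1450533_a_at had a difference of 0.55 with an adjusted p = 0.609 in limma and was the only member with an unadjusted p under 0.05, and 7.15% of all probe sets met that mark in the same fit. Leaving out mutant sample 2 gave main differences between -0.04 for Igf2 and 0.23 for Peg3, with a median of 0.11. In that fit the Ndn set 1437853_x_at had a difference of 0.37 with an adjusted p = 0.849 in limma and was the only member with an unadjusted p under 0.05, against 5.72% of all probe sets. Peg3 thus changed sign with the sample left out.

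Other genes known to be imprinted in at least some mouse tissues were measured as well, and their imprinting in skin was not tested. Of 56 listed, 47 were represented on the array and 32 were bright enough to test. Their differences ranged from -0.25 to 0.37, positive for 14 and negative for 18, with a median of -0.012, and none passed an adjusted p of 0.05 in limma, against 1 of 11589 genes (0.00863%). A single one, Igf2r, had an unadjusted p under 0.05, against 3.42% of all genes, and it was also the only one of the 32 whose groups did not overlap, with mutant samples higher, against 8.02% of all genes (mutant samples higher in 3.55% and lower in 4.47%). The next smallest p-values belonged to Pon3, a paraoxonase (0.31), Inpp5f, an inositol phosphatase (-0.25), Tssc4 (-0.24) and Asb4 (0.31), where the values are log2 differences that did not pass. With 1 sample left out they came as near to 0 as 0.17 for Pon3 (control sample 1), -0.10 for Inpp5f (mutant sample 2), -0.10 for Tssc4 and 0.15 for Asb4 (both mutant sample 1). Of the 2 tested probe sets of Inpp5f, only 1 was negative. Rian and Mirg, non-coding RNAs of the same domain as Dlk1 and Meg3, differed by 0.01 and -0.13. Gnas, which encodes the stimulatory G protein alpha subunit, differed by 0.10.

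Among genes of the IGF axis, the ligands, receptors and binding proteins through which Igf2 acts, 17 of 21 listed were tested and none passed an adjusted p of 0.05. Of these, 12 were positive and 5 negative, with a median of 0.17, which was 0.062 without mutant sample 1 and 0.30 without mutant sample 3. The unadjusted p in limma was under 0.05 for Igf2r, where 3.42% of all genes met this, and also for Irs4. Irs4 was bright enough to test only because of its signals in mutant samples 1 and 3. It is therefore not a fair count beside that share, among the positive genes or in the median. The groups did not overlap for 2 of the 17, Igf2r and Igf1r, where 8.02% of all genes met this.

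Igf2r, itself imprinted and expressed from the maternal copy, encodes the receptor that takes up IGF2 for breakdown. It read 2813, 1986 and 2289 in mutant and 1979, 1788 and 1659 in control samples 1, 2 and 3, and mutant sample 2 exceeded control sample 1 only slightly. The difference was 0.37 (SE 0.16; 95% interval 0.01 to 0.73), with an adjusted p = 1.0 in limma. Without mutant sample 1 it was 0.24, and the adjusted p = 0.758 in limma. Both of its tested probe sets were positive.

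Igf1r, the signalling receptor for IGF1 and IGF2, read 2350, 2185 and 1953 in mutant and 1872, 1787 and 1655 in control samples 1, 2 and 3. Every mutant sample lay above every control sample, and 3 of its 4 tested probe sets were positive. The difference was 0.28 (SE 0.13; 95% interval -0.02 to 0.58), with an adjusted p = 1.0 in limma. Insr, the insulin receptor, differed by 0.22 and its groups overlapped. Irs4, a docking protein of these receptors, read 516, 83.5 and 234 in mutant and 98, 65.3 and 69.5 in control samples 1, 2 and 3. Mutant sample 2 fell among the control samples, and the difference of 1.29 (SE 0.50; adjusted p = 1.0 in limma) was 0.72 without mutant sample 1. All control samples and mutant sample 2 read below the filter signal of about 114.5. Irs4 therefore entered the test through the group where it was high, and its difference is not a fair measure. Igfbp2, a binding protein that holds IGFs in the tissue, differed by 0.53 (SE 0.40) and by 0.060 without mutant sample 1, where it read 3751 against 1032 to 2078 elsewhere. Stc2, an inhibitor of the protease that frees IGFs from binding proteins, differed by 0.43 (SE 0.30) and by 0.117 without control sample 3.

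**Figure D4:**
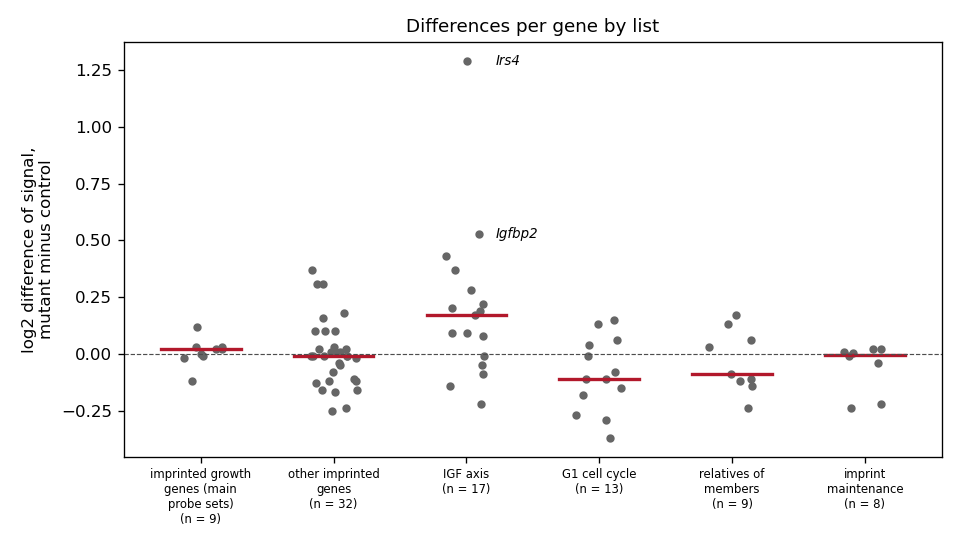
Log2 difference of signal (mutant minus control, y axis) of each tested gene, as points, in the imprinted growth genes and 5 gene lists; red bars are medians and n is the number of genes tested. The imprinted growth genes lie between -0.12 and 0.12, and Irs4 (1.29) and Igfbp2 (0.53) of the IGF axis lie highest. Irs4 passed the filter only through the mutant samples where it was high, so its point is not a fair measure.

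Genes of the G1 phase were cyclins, cyclin-dependent kinases and inhibitors other than Cdkn1c. They gave 4 positive and 9 negative differences among 13 tested genes, with a median of -0.11 that was -0.0073 without mutant sample 1. None passed an adjusted p of 0.05 in limma. Ccnd1, which encodes cyclin D1, was the only one of them with an unadjusted p under 0.05 in limma, against 3.42% of all genes. It was also the only one whose groups did not overlap, against 8.02% of all genes (mutant samples lower in 4.47%). It read 2859, 3291 and 4157 in mutant and 4261, 4606 and 4309 in control samples 1, 2 and 3, with a difference of -0.37 (SE 0.15; adjusted p = 1.0 in limma) and -0.24 without mutant sample 1. Cdkn2c and Cdkn2d, inhibitors of the cyclin D kinases, differed by -0.27 and -0.29, and the kinases Cdk4 and Cdk6 by -0.15 and -0.18. Without mutant sample 1, Cdkn2d differed by -0.041 and Cdk4 by 0.031, and without control sample 3, Cdkn2c differed by -0.169 and Cdk6 by -0.115. Cdkn1a and Cdkn1b, the closest relatives of Cdkn1c, differed by 0.06 and 0.13, and Cdkn1b by -0.0073 without mutant sample 1.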

How the data were processed

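RNA of 3 mutant and 3 control skin samples was hybridised to Affymetrix mouse arrays. The authors' deposited values are MAS5 signals, a linear intensity per probe set, per the submitters' processing notes, which name no version. Each array had a mean of 500 after trimming 2% at each end, and array medians were 110.4 to 131.5. The number of arrays limits the precision.

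Signals were analysed as log2(signal + 24.48), the 20th percentile of all values, which understates changes of dim probe sets. The 64 control probe sets were left out. Of the rest, 22518 with a mean log2 above the median entered limma (version 3.58.1, R 4.3.3), whose eBayes step used a trend of variance on mean; tests were two-sided, and Benjamini-Hochberg adjusted p-values over this whole table had a threshold of 0.05. On simulated data of this size, made without an outlying array, the test missed many changes of 1 on the log2 scale and few of 2. Smaller changes, such as the differences of the members, were not simulated. The share of false calls lay somewhat above the threshold. The brightest probe set on average stood for a gene. Names came from the platform annotation (34958 probe sets with 1 symbol, 932 with several, 9211 with none), and 34754 of those with 1 symbol matched RefSeq (GRCm38.p6), with 0 symbols changed.

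Genes named were all members, the 5 genes of smallest p in each list, marker genes over 4 times higher in 1 sample than in any other, keratinocyte markers, and the 2 genes nearest each member ranging over at least 1 on the log2 scale. Rian, Mirg, Gnas, Insr, Cdkn1a, Cebpa and Tpbpa lie outside this rule and were picked with their values known. The members and lists were chosen with earlier results of these data known. Alternatives changed the pseudocount, filter, normalization, variance model, covariate, block, threshold, samples or choice of probe sets.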

Additional observations from a re-analysis of the deposited data

How the results depend on the processing

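No member probe set, other imprinted gene or IGF axis gene passed an adjusted p of 0.05 under any alternative run, nor at an adjusted p under 0.1. The smallest adjusted p of a member's gene in limma was 0.586, with array weights. The median of the 9 genes ranged from -0.044 to 0.11 with 1 sample left out. It moved by less than 0.103, the pooled within-group SD of the samples' median deviations over the main probe sets. The largest move, from 0.0152 to 0.113 without mutant sample 2, came close to this SD. Over the whole array, 1 probe set passed; 106 did with array weights, 8 with the replicate block, 2 with the mean over the probe sets of a gene and 0 with the filter at the 75th percentile, and with 1 sample left out 1 to 39 did (39 when mutant sample 1 was dropped, 3 for control sample 2, 2 for mutant sample 2). The replicate block changed no other call; deviations of same-numbered samples from their group means correlated at -0.052, -0.073 and 0.11, and only 2 of 6 samples correlated best with the sample of their own number. Quantile normalization and median centring gave medians over all probe sets of -0.017 and -0.036.

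Differences this close to 0 changed sign easily, in 32 of 179 values of the members and 18 of 465 of the 24 list genes, none past the threshold; the cause was not tested. With array weights, the values of the other sign were 0.072 for Igf2, -0.011 for Cdkn1c, 0.17 for Dlk1, 0.087 for Ndn, -0.0091 for Cdkn1b, -0.17 for Dnmt1, 0.0057 for Maged1 and 0.022 for Uhrf1. With the mean over probe sets they were 0.036 for Dlk1, -0.080 for Meg3, -0.19 for Grb10, 0.038 for Ndn, -0.10 for Dnmt1, 0.016 for Dnmt3b and -0.045 for Trim28. Without _s_at, _x_at and _a_at probe sets they were 0.087 for Dlk1, -0.20 for Plagl1 and 0.037 for Ndn, and in each case another probe set stood for the gene. With the signal of Xist as covariate, a stand-in for embryo sex, they were 0.034 for Peg3, 0.036 for Ndn and 0.052 for Dnmt3b. With quantile normalization the value was -0.0027 for Meg3. With 1 sample left out, the ranges were -0.071 to 0.081 for Igf2, -0.018 to 0.092 for Cdkn1c, -0.14 to 0.11 for Dlk1, -0.13 to 0.18 for Meg3, -0.39 to 0.23 for Peg3, -0.047 to 0.11 for Grb10, -0.066 to 0.10 for Mest, -0.13 to 0.20 for Ndn, -0.26 to 0.031 for Cdk4, -0.0073 to 0.24 for Cdkn1b, -0.05 to 0.16 for Dnmt1, -0.18 to 0.058 for Dnmt3b, -0.019 to 0.048 for Trim28 and -0.40 to 0.018 for Uhrf1.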

Other observations

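Factors that set or keep imprints were measured too. Of 11 listed genes, 8 were tested, with 4 positive and 4 negative differences, a median of -0.0032, and none past an adjusted p of 0.05 or with an unadjusted p under 0.05 in limma. Ctcf, the insulator protein that binds the control region between Igf2 and H19, read 1740, 1953 and 2243 in mutant and 2318, 2380 and 2200 in control samples 1, 2 and 3. Mutant sample 3 exceeded control sample 3, so the groups overlapped, and the log2 difference was -0.22 (SE 0.14); 1 of its 2 tested probe sets was positive, and without mutant sample 1 the difference was -0.13. Uhrf1, which brings the maintenance methyltransferase to newly copied DNA, differed by -0.24 (SE 0.22) and by 0.018 without mutant sample 1. Dnmt1, that methyltransferase, differed by 0.02, Dnmt3b, a de novo methyltransferase, by -0.04, and Trim28, a co-repressor that protects imprints in the early embryo, by 0.01.

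Relatives of the members that are not imprinted gave 4 positive and 5 negative differences among 9 tested, with a median of -0.088 that was -0.0073 without mutant sample 1 and 0.035 without control sample 3. None of the 9 passed an adjusted p of 0.05 or had an unadjusted p under 0.05 in limma. Maged1 and Maged2, of the same family as Ndn, differed by -0.24 (SE 0.17) and -0.11 (SE 0.12). Grb14, the adaptor nearest to Grb10, differed by -0.14 (SE 0.20), and Dlk2 by 0.17 (SE 0.26). With 1 sample left out, Dlk2 lay between 0.0044 (without mutant sample 3) and 0.425 (without mutant sample 1). Maged1 came to -0.088 without mutant sample 1, Maged2 to -0.045 without mutant sample 2 and Grb14 to -0.077 without control sample 3. The signals of each of these genes overlapped between groups.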
